A study of Caenorhabditis elegans with 3 samples.

Results

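The yolk protein genes vit-2, vit-5 and vit-6, the yolk receptor gene rme-2 and the caveolin gene cav-1 were followed in hermaphrodites of the nematode Caenorhabditis elegans early in young adulthood. They are the genes of this set for which the platform annotation listed a probe under their symbol alone with a value on all arrays: 5 probes for 5 genes, of 15078 genes and 19664 probes measured on every array. Each of 3 two-colour DNA microarrays carried 1 prep of these worms in channel 2, while channel 1 held mRNA of a mixed wild-type reference. The preps form 1 group. Each value is the log2 ratio of the worms to the reference, so 1 stands for a doubling and 0 for equal signal. The labels used here name no strain, transgene or exact age for the worms, and say neither what the reference was mixed from nor whether the preps were separate cultures. The p-values therefore cover only prep-to-prep spread, which may be technical.

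Vitellogenins are large lipoproteins that the intestine of the adult hermaphrodite makes and secretes into the body cavity. Growing oocytes bind them through RME-2, a receptor of the low-density lipoprotein (LDL) receptor superfamily, and take them up through clathrin-coated vesicles, so that the lipid and protein feed the embryo. Caveolins are membrane proteins of cholesterol-rich domains. CAV-1 is found in oocytes, in granules that fuse with the surface around fertilization, and also in neurons and other cells. Yolk genes are a classic mark of the change to adulthood, and they are silent in males.

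Between 19742 and 19914 of 20000 probes had a value on each array. Over all probes the correlation between arrays was 0.803 for preps 1 and 2, 0.775 for preps 1 and 3 and 0.909 for preps 2 and 3. Precision is limited by the number of arrays, and the brightness of the spots was not analysed here. The direction, worms over reference, is likely. It rests on the channel order in the labels and on col-62, col-19 and col-7, collagen genes of the adult cuticle, all above the reference, at mean log2 ratios of 2.69 ± 0.84, 2.60 ± 0.06 and 2.51 ± 0.63 (SD, n = 3). The labels do not say which dye each channel had, and if the sign were the other way round, every direction given would turn with it. By limma's test at an adjusted p of 0.05, 11 of 17 sperm genes measured were above the reference and 0 below, and their median log2 ratio was 0.74. Of 9 genes listed for neurons that only males have, some of which hermaphrodite neurons also express, 0 were above and 1 below, with a median of 0.06 and a range of −0.73 to 0.37. Among all genes 21.7% were above and 22.2% below. In RNA of whole worms, fewer cells of a type and less RNA per cell cannot be told apart, and a ratio also moves with what the reference holds.

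The comparison of young adults with the mixed reference asked whether the yolk system stood higher or lower in these worms than in the pool. The receptor gene rme-2 was 3.44-fold above the reference and cav-1 was 4.12-fold below it, although both are expressed in oocytes. Of the yolk protein genes, vit-2 was 1.61-fold above the reference, and vit-5 and vit-6 did not pass the test. Thus 2 of the 5 genes were above and 1 was below in limma's one-sample test against 0, with a threshold of 0.05 on p adjusted over all genes by Benjamini-Hochberg. That test called 44.0% of all genes, 21.7% above and 22.2% below, so a call as such is common on these arrays. Fewer genes were called and also far from the reference: 7.25% of all genes were below by at least 1 on the log2 scale, as cav-1 was, and 5.80% were above by at least 1, as rme-2 was. Without variance moderation, which pools the spread over genes, limma called 0 of the 15078 genes, with 5400 at an unadjusted p of 0.05. The adjusted p was then 0.348 for vit-2, 0.0951 for rme-2 and 0.0789 for cav-1.

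**Figure D1:**
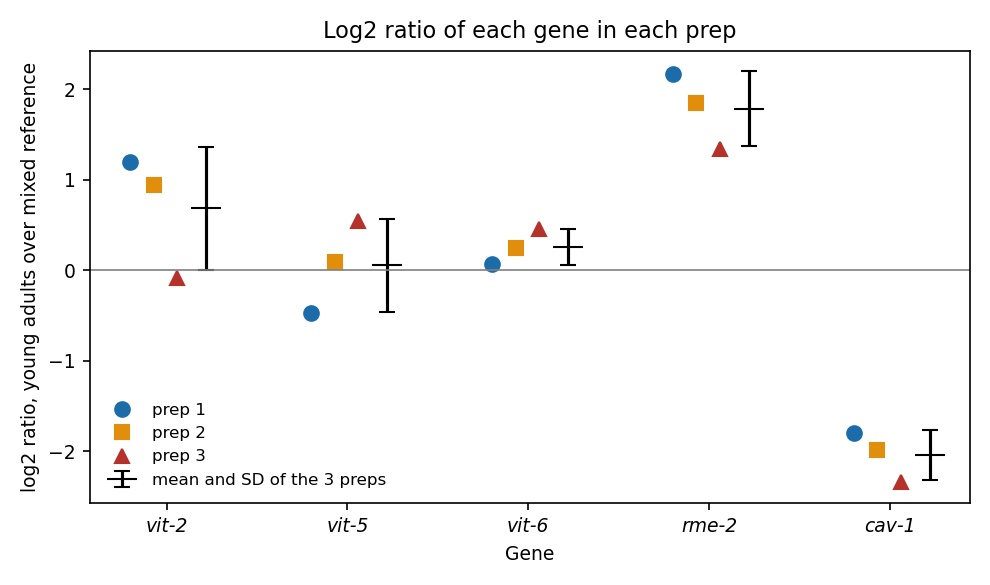
Log2 ratio of young adults over the mixed reference (y axis) for each gene (x axis). Coloured symbols are the 3 preps, and the black bar is their mean with its SD. rme-2 lay above 0 and cav-1 below 0 in every prep, while vit-2 and vit-5 had preps on both sides of 0.

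The ligand genes come first in the pathway. vit-2 encodes one of the large yolk polypeptides and lies on chromosome X. Its log2 ratio was 1.199 in prep 1, 0.94 in prep 2 and −0.09 in prep 3, so that preps 1 and 2 stood near each other and prep 3 was at the level of the reference. The mean was 0.68 ± 0.68 (SD, n = 3; 95% interval 0.18 to 1.18; limma adjusted p = 0.0316), and 2 of 3 preps were above 0. That call did not hold without prep 1 (0.425, adjusted p = 0.113) or without prep 2 (0.556, adjusted p = 0.0561), and the value was 1.07 without prep 3. It also ended when tested against a 1.2-fold margin (adjusted p = 0.137). The SD of vit-2 over the preps was as large as or larger than that of 98.4% of all genes.

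A second probe bears on vit-2. The platform annotation lists it for both vit-1, a close relative on the same chromosome, and vit-2, so its signal cannot be given to either gene. It was at 1.66 in prep 1, 0.997 in prep 2 and 0.22 in prep 3, and prep 3 was again the lowest. Its mean was 0.96 ± 0.72 (SD, n = 3; limma adjusted p over probes = 0.00982). The probe of vit-2 alone was lower than this shared probe on all 3 arrays, by 0.47, 0.06 and 0.31 in preps 1, 2 and 3. For vit-3 and vit-4, also on X, and for vit-1 no probe carried the gene's symbol alone. Yolk genes of a subfamily resemble each other closely, so signal from relatives may be part of any of these values.

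vit-5, also on X and also encoding a large yolk polypeptide, was at −0.47 in prep 1, 0.09 in prep 2 and 0.55 in prep 3. The preps lay on both sides of 0, and prep 3 was the highest, the reverse of vit-2. The mean was 0.05 ± 0.51 (SD, n = 3; 95% interval −0.37 to 0.48; limma adjusted p = 0.841), and it was −0.192 without prep 3 and 0.319 without prep 1. vit-5 thus did not pass, and the interval leaves room for a change of either sign.

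vit-6, on chromosome IV, encodes the precursor that is cleaved into the smaller yolk polypeptides. It was at 0.06 in prep 1, 0.24 in prep 2 and 0.46 in prep 3, above 0 in each and highest in prep 3. The mean was 0.25 ± 0.20 (SD, n = 3; 95% interval −0.06 to 0.57; limma adjusted p = 0.169), so vit-6 did not pass, although it did without prep 1 (0.35, adjusted p = 0.0421). Probes that neighbour it in the order of probe numbers had the same order of preps: the median of its block of 100 probes was −0.07, 0.19 and 0.36 in preps 1, 2 and 3. With each block centred on its median, vit-6 was at 0.13, 0.05 and 0.10, with a mean of 0.10 ± 0.04 (SD, n = 3; limma adjusted p = 0.559). The prep-to-prep order of vit-5 was the same after such centring, at −0.45, 0.07 and 0.50, and so was that of vit-2, at 1.49, 1.01 and 0.05.

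The receptor gene rme-2, on chromosome IV, had the highest ratio of the 5 genes in every prep. It was at 2.17 in prep 1, 1.84 in prep 2 and 1.34 in prep 3. All preps stood above 1, and prep 3 was the lowest. The mean was 1.78 ± 0.42 (SD, n = 3; 95% interval 1.40 to 2.16; limma adjusted p = 4.35e-05), above the reference in 3 of 3 preps, and between 1.59 and 2.00 with any 1 prep left out. It ranked 181 of 15078 genes from the highest. On chromosome IV, 26.7% of 2254 genes were above the reference.

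The caveolin gene cav-1, also on chromosome IV, had the lowest ratio of the 5 genes in every prep. It was at −1.80 in prep 1, −1.99 in prep 2 and −2.34 in prep 3. No prep came closer to the reference than −1.80, and prep 3 was the farthest below it. The mean was −2.04 ± 0.28 (SD, n = 3; 95% interval −2.38 to −1.71; limma adjusted p = 9.77e-06), below the reference in 3 of 3 preps, and between −2.17 and −1.89 with any 1 prep left out. Only 1.27% of all genes were as low or lower. cav-2, which encodes the second caveolin and lies on chromosome V, was at −0.81, −1.16 and −0.45 in preps 1, 2 and 3. Its mean of −0.81 ± 0.35 (SD, n = 3; limma adjusted p = 0.00267) was also below the reference. Both caveolin genes thus lay below it, with cav-1 the lower on each array.

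**Figure D2:**
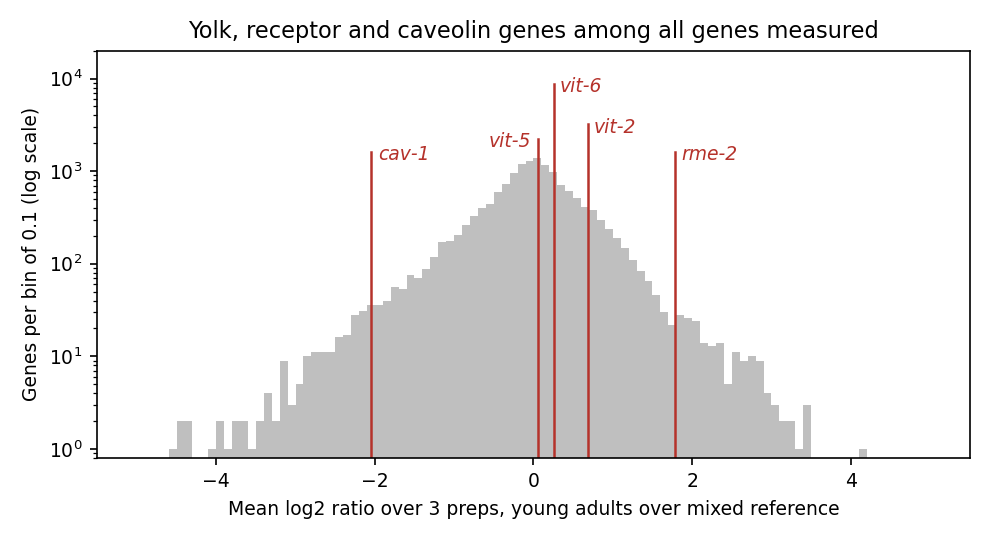
Distribution of the mean log2 ratio over the 3 preps for all 15078 genes (grey bars, x axis in bins of 0.1; the y axis is the number of genes on a log scale), with red lines at the 5 genes. cav-1 at −2.04 and rme-2 at 1.78 lie in the tails, while vit-5 at 0.05, vit-6 at 0.25 and vit-2 at 0.68 lie in the body of the distribution.

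Differences between the genes were taken within each array, where they show unequal change and no difference of level. Over the 10 pairs an exact two-sided sign-flip permutation test was run, which cannot go below p = 0.25 with 3 arrays. rme-2 was above cav-1 by 3.96, 3.83 and 3.69 in preps 1, 2 and 3, a mean difference of 3.83 ± 0.14 (SD, n = 3; exact p = 0.25, adjusted p over the pairs = 0.357). This was the least variable of the 10 differences, and both genes had their highest value in prep 1 and their lowest in prep 3. rme-2 was also above each yolk gene on all 3 arrays. vit-2 was below rme-2 by 0.97, 0.91 and 1.43 in preps 1, 2 and 3, with vit-2 minus rme-2 at −1.10 ± 0.29 (SD, n = 3; exact p = 0.25, adjusted p = 0.357), or −0.711 with blocks of 100 neighbouring probes centred.

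Among the yolk genes the order changed from array to array. vit-2 minus vit-5 was 1.67 in prep 1 and 0.85 in prep 2, but −0.64 in prep 3. Its mean of 0.63 ± 1.17 (SD, n = 3; exact p = 0.5, adjusted p = 0.5) was smaller than its spread, and it was 1.26 without prep 3, 0.519 without prep 2 and 0.105 without prep 1. vit-2 minus vit-6 was at 1.13, 0.69 and −0.54 in preps 1, 2 and 3, and its mean of 0.43 was 0.0748 without prep 1, 0.914 without prep 3 and 0.757 with blocks of neighbouring probes centred. vit-5 minus vit-6 was −0.54, −0.15 and 0.09, a mean of −0.20 ± 0.32 (SD, n = 3; exact p = 0.5). That mean was −0.0306 without prep 1, −0.346 without prep 3 and −0.0565 with blocks of neighbouring probes centred. The yolk genes therefore have no settled order of ratios in these preps.

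Prep 3 was compared with the other preps for these genes, and the same gap was not computed for preps 1 and 2. The side of each gap was taken from the gene's own values, so the shares below are descriptive and not tests. Over all probes prep 1 had the lower correlations, 0.803 and 0.775, against 0.909 for preps 2 and 3. In vit-5, prep 1 at −0.47 was farther from prep 2 than prep 3 was. In vit-2 prep 3 lay 1.03 below the lower of the other preps, a gap that 19 of all genes (0.126%), vit-2 included, reached. In rme-2 the gap was 0.504, reached by 1.43% of all genes, and in cav-1 it was 0.355, reached by 3.97%. In vit-5, by contrast, prep 3 lay 0.457 above the higher of the others, which 2.81% of all genes reached, and in vit-6 it lay 0.213 above, which 10.4% reached, but not once its block of probes was centred, when prep 3 lay between the others. The titles of the arrays carry a date whose meaning they do not state, and that of prep 3 is set off from the other dates. Each date holds 1 array, so date and prep cannot be told apart. Oocyte and sperm genes moved with the preps too. Of 26 oocyte and eggshell genes, 22 (84.6%) had their lowest ratio in prep 3, against 33.1% of all genes, and their median was 0.998, 0.95 and 0.59 in preps 1, 2 and 3. Of 17 sperm genes, 9 (52.9%) had their highest ratio in prep 3, against 27.4% of all genes, and their median was 0.44, 0.72 and 0.91. The part of these shifts in the values of vit-2, vit-5 and rme-2 was not tested.

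**Figure D3:**
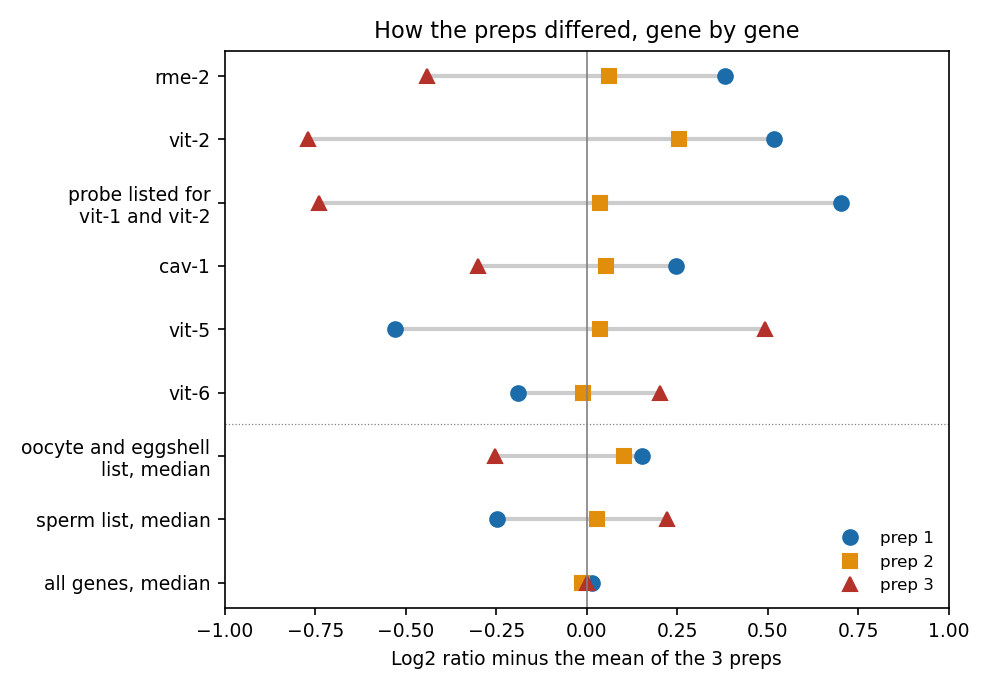
Log2 ratio in each prep minus the mean of the 3 preps (x axis) for the 5 genes, for the probe listed for both vit-1 and vit-2 and, below the dotted line, for the medians of 2 gene lists and of all genes. Prep 3 (red triangles) is the lowest for rme-2, vit-2, the shared probe, cav-1 and the oocyte list, and the highest for vit-5, vit-6 (as deposited, not with its probe block centred) and the sperm list.

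Genes of the LDL receptor superfamily lay on both sides of the reference. Of 5 measured, rme-2 included, 2 were above the reference, 2 below and 1 did not pass, with a median of −0.27. Among all genes 21.7% were above and 22.2% below, and the median was 0.00. egg-2, which encodes an oocyte surface protein needed for fertilization, was above at 0.48 ± 0.31 (SD, n = 3; limma adjusted p = 0.0298). Its close relative egg-1 was at −0.27 ± 0.26 and did not pass. lrp-1, the megalin homolog of the epidermis, was below at −1.35 ± 0.17 (limma adjusted p = 5.98e-05), and lrp-2 was below at −0.45 ± 0.24 (limma adjusted p = 0.0287).

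Genes of endocytosis and receptor recycling, the machinery that carries yolk into the oocyte and the receptor back to the surface, lay on both sides. Of 27 listed genes 25 were measured, of which 8 (32%) were above, 5 (20%) below and 12 did not pass, against 21.7% above and 22.2% below among all genes. Their median was −0.03. The highest was par-3, a cell polarity gene whose product also acts in endocytic recycling, at 1.10 ± 0.10 (SD, n = 3). Next was chc-1, which encodes the clathrin heavy chain of the coated vesicles, at 0.86 ± 0.27. The lowest were vps-34, which encodes a lipid kinase of endosomes, at −0.62 ± 0.12 and rme-4, which encodes an activator of the small GTPase RAB-35 and was found through the yolk uptake of its mutants, at −0.49 ± 0.15. These 4 genes passed, with limma adjusted p between 1.55e-04 and 0.0152. Without prep 2 the counts were 5 above and 2 below, where those over all genes also fell, to 2277 above and 2335 below, against 3278 and 3351 with all preps. Without prep 3, 1 of the endocytosis genes was below, and 2463 of all genes. Without prep 1 the counts rose, to 10 endocytosis genes above and 7 below, with 3833 of all genes above and 3918 below. Most of these genes act in many tissues, so their ratios are not those of the oocyte alone.

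Regulators of yolk gene expression, listed together with a gene of lipoprotein assembly, were mostly below the reference. The list was not split by whether a regulator raises or lowers yolk gene expression, so counts over it give the yolk genes no direction. Some of these regulators lie on chromosome X, where 33.3% of genes were below the reference. Of 26 listed genes 22 were measured, of which 13 (59.1%) were below, 3 (13.6%) above and 6 did not pass, against 22.2% below and 21.7% above among all genes, and their median was −0.47. Without prep 2 the number below was 6, with 2335 of all genes below, and against a 1.2-fold margin it was 5, with 2087 of all genes, against 3351 in the test as given. The assembly gene dsc-4, which encodes the microsomal triglyceride transfer protein that loads lipid onto lipoproteins, was the highest at 1.43 ± 0.14 (SD, n = 3; limma adjusted p = 3.82e-05). Next was rict-1, which encodes the Rictor subunit of TOR complex 2 and acts in the intestine, at 0.87 ± 0.09 (limma adjusted p = 5.55e-04). The lowest were pqm-1, which encodes a zinc finger transcription factor, at −1.46 ± 0.30 (limma adjusted p = 7.15e-05) and the bZIP factor gene zip-10 at −1.41 ± 0.22 (limma adjusted p = 5.97e-05).

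Some known activators of the yolk genes were chosen for mention after their values were seen, so they do not stand for activators as a class. elt-2, which encodes the GATA factor of the intestine, was below at −0.46 ± 0.31 (SD, n = 3; limma adjusted p = 0.0332). The homeodomain factor genes unc-62 and ceh-60 were at −0.25 ± 0.11 and 0.24 ± 0.32, and neither passed. lin-29, which encodes the zinc finger factor of the larval-to-adult switch, was below at −0.57 ± 0.24 (limma adjusted p = 0.0095).

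Genes of the tissues at both ends of the yolk route, the oocyte and the intestine, were counted in the same way. Of 26 oocyte and eggshell genes measured besides rme-2 and cav-1, 20 (76.9%) were above, 0 below and 6 did not pass, with a median of 0.84, against 21.7% above and 22.2% below among all genes. Without variance moderation 0 of them were called above. Their highest were puf-7 and puf-6, which encode RNA-binding proteins of oocytes, at 2.02 ± 0.32 and 1.94 ± 0.37 (SD, n = 3), and their lowest, besides egg-1, was the eggshell proteoglycan gene cpg-2 at −0.02 ± 0.35. The ratio of rme-2 exceeded those of 23 of the 26, and cav-1 was lower than all 26. Of 22 intestinal genes, 8 (36.4%) were above, 10 (45.5%) below and 4 did not pass, with a median of 0.00, so both shares were larger than the 21.7% and 22.2% of all genes. Their highest were the cysteine protease gene cpr-5 at 2.77 ± 0.23 and vha-6, which encodes a subunit of the proton pump, at 1.52 ± 0.67. Their lowest were the metallothionein gene mtl-1 at −3.47 ± 0.46 and the ferritin gene ftn-1 at −2.21 ± 0.27. Of the yolk protein genes, which the intestine expresses, 1 of the 3 measured passed.

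**Figure D4:**
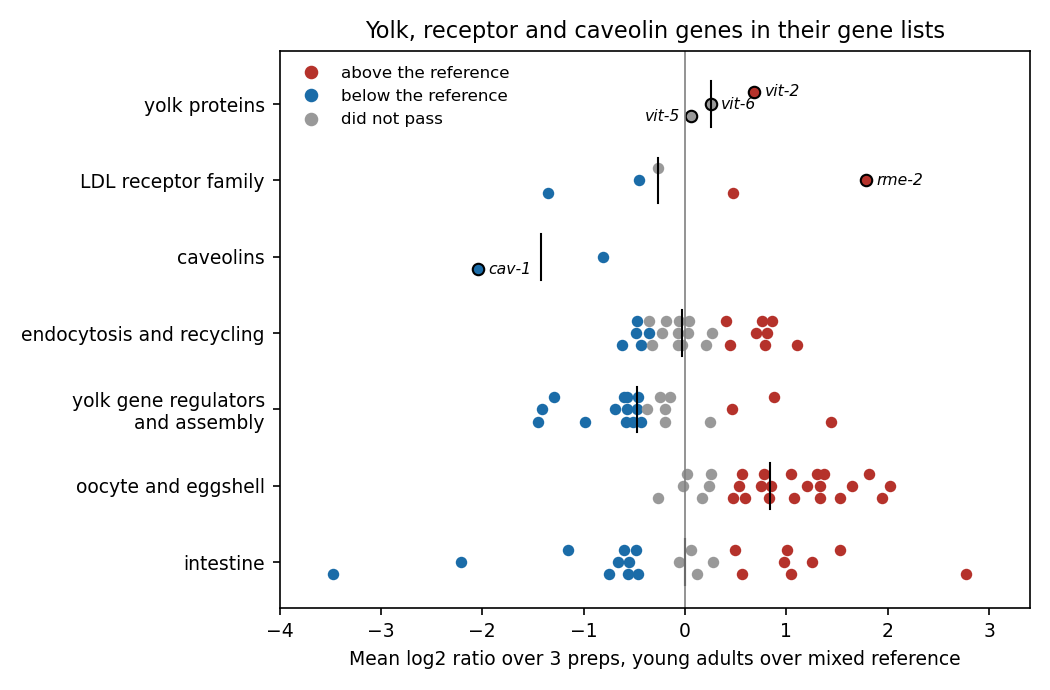
Mean log2 ratio over the 3 preps (x axis) of each measured gene of 7 lists (rows), coloured by its call against the mixed reference; outlined and named points are the 5 genes, and vertical bars are the list medians. rme-2 lies to the right of the other LDL receptor family genes, cav-1 to the left of every oocyte and eggshell gene, vit-5 and vit-6 near 0, and vit-2 at 0.68.

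The chromosomes of these genes have different levels of their own. On X, the median over 2249 genes was −0.22, with 6.49% of them above the reference and 33.3% below. vit-2, which was above, had a ratio at or over those of 96.6% of X-linked genes, and vit-5 at or over those of 78.5%. On chromosome IV the median was 0.07, and vit-6, rme-2 and cav-1 stood at or over 64.9%, 97.6% and 1.51% of its genes.

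The genes with the most similar values were found by Euclidean distance over the 3 log2 ratios, among all genes with 1 symbol. The nearest to rme-2 were fib-1, which encodes the nucleolar protein fibrillarin, at a distance of 0.0711, gld-1, which encodes a germline RNA-binding protein, at 0.149 and cbd-1, an eggshell gene, at 0.199. The nearest to vit-2 were cand-1, pho-8 and rle-1, at 0.112, 0.189 and 0.234. Within a distance of 0.5 lay 25 genes for vit-2 and 40 for rme-2. Such counts also depend on how many genes lie near the mean of a gene, so they do not show how rare a pattern is. For cav-1 the count was 78 genes, led by nlp-32, F56H9.2 and fipr-24. vit-5 and vit-6 had many, 725 and 2714, led by srt-71, unc-15 and T24C2.3 for vit-5 and by C18E3.1, nhr-192 and nhr-169 for vit-6. With 3 arrays such likeness describes these preps and nothing more.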

How the data were processed

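Log2 ratios of early young adult hermaphrodites over a mixed wild-type reference were measured on 3 two-colour arrays, grouped by the labels, with prep numbers as replicate numbers. The authors deposited 1 log2 ratio per probe and array; base 2 was read from the values, since 2 raised to the value fell on steps of 0.001, to a tolerance of 0.01 steps, for 100% of ratios under 1, against 3.11% with base e. The labels name no dye, background correction, normalization or tool, so these are not given in the sources used. Column medians were 0.0072, 0.0058 and 0.016 and SDs over probes 0.694, 0.766 and 0.733 for preps 1, 2 and 3, so scale and centring are known, the normalization is not, and the direction is only likely. The ratios were used as deposited.

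Of 20000 probes, 336 without a value on all arrays were left out. The platform annotation gave 1 symbol for 15655 probes and several for 198, and 4147 were not listed. Of the single symbols 15569 matched a table of WBcel235 genes, and 0 needed an update. It was used for names and chromosomes alone. Probes of a gene were averaged, and each of the 5 genes had 1 probe. limma 3.58.1 in R 4.3.3 (lmFit on an intercept, eBayes) tested the mean against 0, two-sided, with Benjamini-Hochberg adjustment over 15078 genes. The reference's own spread is not in this test. The steps were tested on simulated data. Of 50 genes changed by 0.5 on the log2 scale, 13 (26%) were called, and of 50 changed by 1, 50 were called. At changes of 2 and of 3, 50 of 50 were called each time. Among the rest of the 15078 genes, simulated without change, 16 were called. In the simulation 200 of the 15078 genes were changed, while 6629 genes were called in these data. With fewer genes changed the adjustment is stricter, so the 26% does not carry over to these arrays. Not passing does not show that a gene was unchanged.

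The genes, the lists and the tests were chosen with earlier results of these data known. Named were the 5 genes and the 3 genes nearest to each of the 5. In each of 10 lists the 2 highest and 2 lowest measured genes were also named (all, in lists of 4 or fewer). Exceptions were the sperm and male neuron lists, for which only counts and medians are given, with a range for the male neuron list. Outside this rule, elt-2, unc-62, ceh-60 and lin-29 were named after their values were seen. Alternatives were centring of arrays and of blocks of 100 neighbouring probes, scaling to equal median absolute values, quantile normalization, no or robust variance moderation, a 1.2-fold margin, probes in place of genes, the sign turned, and each prep left out.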

Additional observations from a re-analysis of the deposited data

How the results depend on the processing

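The values of rme-2 and cav-1 kept their direction and their call under every alternative run except no variance moderation and the sign turned, and vit-2 kept its call when arrays were centred, scaled or quantile normalized, when blocks of probes were centred, with robust moderation and with probes in place of genes. Without moderation no call was left: vit-2 at 0.683, rme-2 at 1.78 and cav-1 at −2.04 did not pass, and counts were 0 above and 0 below for the 5 genes, for all genes and for the endocytosis, regulator, oocyte and intestine lists. Against a 1.2-fold margin vit-2 (0.683) did not pass, 1 of the 5 genes was above, 1973 of all genes were above and 2087 below, and 1 endocytosis gene, 5 regulators and 5 intestinal genes were below. With the sign turned, vit-2 was at −0.683, vit-5 at −0.055, vit-6 at −0.255, rme-2 at −1.78 and cav-1 at 2.04; 1 of the 5 genes was above and 2 below, as were 5 and 8 endocytosis genes, 13 and 3 regulators, and 0 and 20 oocyte genes. With each prep left out in turn, vit-2 ran from 0.425 to 1.07, vit-5 from −0.192 to 0.319 and vit-6 from 0.154 to 0.35; 1 to 2 of the 5 genes were above, 5 to 10 endocytosis genes above and 1 to 7 below, and 6 to 13 regulators below. Over all genes 7751 were called without prep 1, 4612 without prep 2 and 4923 without prep 3, against 6629 with all preps. The cause of these shifts was not tested. No paired analysis was possible because all arrays form 1 group. Signal over background is not in the deposited ratios used here, so the effect of dim spots was not tested.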
